A study of Solanum tuberosum with 8 samples.

Results

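The drought response of wild-type (WT) potato leaves was described from 4 of the 8 arrays of the series, 2 of WT plants after 3 days without water and 2 of WT plants that were watered throughout. All 42034 probes for potato transcripts belonged to the comparison and none was chosen by its values, and 36250 of them passed a filter on low signals and were tested. The other 4 arrays came from drought-treated and watered plants of *Stpfld252*, a single transgenic line with constitutive expression of flavodoxin (Fld), a bacterial and algal electron carrier, in its plastids. These arrays enter here through the normalization, the filter, the shared estimate of the spread and 1 comparison at the end. The WT plants were described as siblings of the line. Plants were raised from tuber slices in 3-L soil pots for 4 weeks at 400 µmol photons of light per square metre and second, under a 16-h day at 25 °C, nights at 22 °C and 80% humidity. Young, fully expanded leaves of the fifth node were taken from 10 plants for each genotype and treatment, and each array carried 1 of 2 pools that came from independent experiments. The p-values therefore measure the spread between pooled samples and not between single plants, and in such bulk leaf RNA fewer cells of a type and less RNA per cell cannot be told apart.

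Leaves that lose water close their stomata, which are the pores through which carbon dioxide enters and water vapour leaves. The hormone abscisic acid (ABA) drives that closure and is sensed through receptors that inhibit protein phosphatases 2C, which in turn releases kinases that activate transcription factors of the bZIP class. Closed stomata restrict carbon fixation while light is still absorbed, and plants commonly accumulate compatible solutes, chaperones and late embryogenesis abundant (LEA) proteins and slow their growth during water deficit.

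For a few transcripts the study had designed primers for quantitative PCR, and those of 4 of them are shown because they stand for responses described below, namely a strongly induced regulator (ATHB7), a strongly repressed growth gene (GAST1), nitrogen assimilation (NR3) and ethylene synthesis (ACO1). Each primer is written 5′ to 3′, and the capitals mark the 5 bases at its 3′ end.
ATHB7 forward: agcatgaatccctcctcATCCA
ATHB7 reverse: ctgctgtcttcacacaaAGCCA
GAST1 forward: gctgtgcaaagtgtctgTGTGT
GAST1 reverse: agatgatcatgggcactTTGGG
NR3 forward: acttgctaacgctgaagCATGG
NR3 reverse: tcaacgtgtaaggtcgcTGAGT
ACO1 forward: tcgttctataatccgGGGAG
ACO1 reverse: cttggaatttgagacCTGCA
The ATHB7 pair belongs to probe bf_ivrootxx_0045h05.t3m.scf and the GAST1 pair to MICRO.11045.C2. The pair named NR3 belongs to MICRO.8565.C1, whose description is nitrite reductase, and the ACO1 pair to MICRO.2939.C2, a 1-aminocyclopropane-1-carboxylate oxidase.

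Values are normalized signals in arbitrary units and can be compared between arrays for 1 probe, not between probes. Induced and repressed probes are those for which limma's test gave a Benjamini-Hochberg adjusted p under 0.05 over all 36250 tested probes together with a change over 2-fold. Changes are log2 values of drought over control with the standard error (SE) of that fit. Pooled over the tested probes, the SD of an array within its pair was 0.127 for WT drought and 0.156 for WT control on the log2 scale. Between 78% and 79.2% of the probes on a WT array were well above background by the scanner software's own measure, and 0 spots were saturated. The number of arrays limits the precision. Slide 1 carried the drought arrays and slide 2 the control arrays, so that in every comparison of drought with control the slide and the treatment cannot be told apart. Of the 10 spike-in RNAs that had been added for control, 9 differed by 0.08 to 0.30 between drought and control arrays of the WT after normalization (log2), while 1 differed by -2.24. The drought and control arrays did not overlap at 80.6% of the tested probes, and a lack of overlap is therefore common here. None of the called probes had overlapping arrays.

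Drought changed the signal of 6600 probes in WT leaves (18.2% of those tested), with 2972 induced (8.20%) and 3628 repressed (10.0%). The median change was 1.49 among induced probes and -1.6 among repressed ones, and 0.04 over all tested probes. Moderate changes were more often decreases, while extreme ones were more often increases. By over 4-fold, 860 probes were induced and 1188 repressed, and by over 16-fold 189 were induced and 159 repressed. Past 64-fold the numbers were 56 and 18. The directions of larger and smaller changes were not compared by a test.

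**Figure D1:**
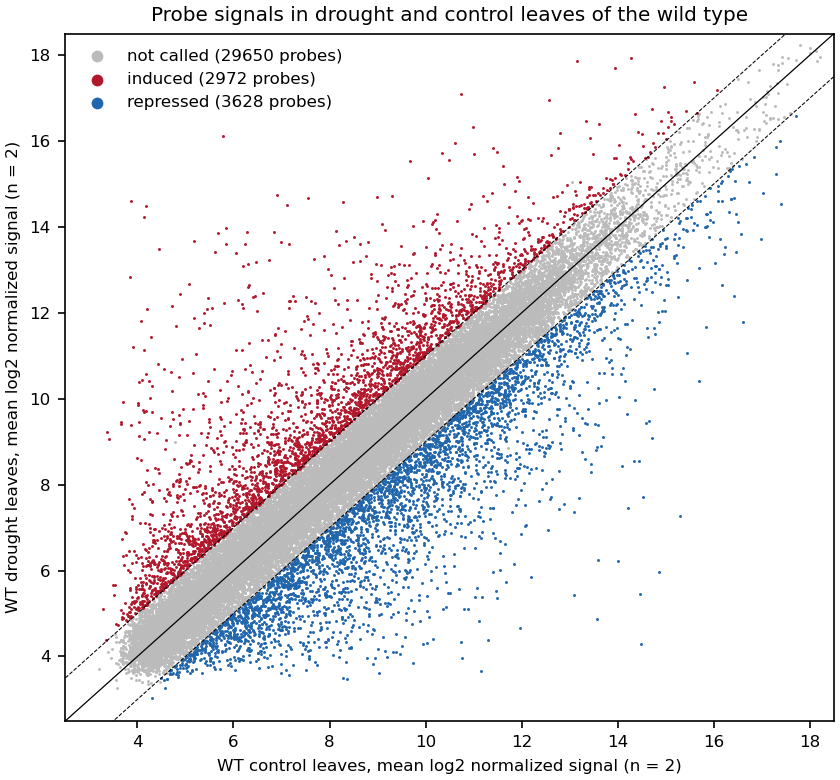
Mean log2 normalized signal of every tested probe in WT drought leaves (vertical axis) and WT control leaves (horizontal axis), 2 arrays each, with induced probes in red, repressed probes in blue and uncalled ones in grey. The solid line marks equal signal and the dashed lines a 2-fold change, and past 64-fold 56 probes lie above the line and 18 below it.

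Part of the response consisted of transcripts detected under 1 condition alone. On both drought arrays and neither control array, 669 probes were well above background, and 258 of these were induced. The reverse held for 639 probes, of which 315 were repressed. For such probes only a lower bound of the change can be given, and it exceeded 16-fold for 39 of the induced and 28 of the repressed ones. At 31510 probes the signal was well above background on all 4 arrays, and there 2646 were induced and 3206 repressed. Probes that share a contig number come from 1 group of assembled sequences, which need not be variants of 1 gene. MICRO.331.C5 is listed with the light-harvesting proteins, for example, and MICRO.331.C39 with the cytochrome P450 enzymes. Among the 494 contig numbers with at least 2 called probes 197 had induced ones alone, 253 had repressed ones alone and 44 had both.

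Names and functional categories are those of the study's own annotation tables, which list 5217 of the tested probes and hold mostly probes that the authors had called on these same arrays. Of these 5217 probes, 35.3% were induced and 43.5% repressed here, with a median change of -0.40, so counts and medians over a gene list are no independent evidence of a direction and are best read against those shares. Of the 6600 called probes, 4116 were annotated. In the paragraphs that follow, a probe is said to rise or fall only where it was called, and over all probes named so the largest adjusted p was 0.00048.

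The largest increase of any probe was at MICRO.14712.C2, for which the annotation gives no sequence match. Its signal was 24500 and 25360 in drought leaves, against 16.07 and 13.16 in control leaves. The control signals were at the level of background, so the rise was at least 1330-fold. POADO59TV, a tobacco-like hypothetical protein placed in the cold stress category, had 70980 on both arrays in drought leaves, against 56.6 and 53.3 in control leaves, a change of 10.34 (SE 0.084, adjusted p = 1.4e-09). A pair of probes described as LE25, a tomato LEA protein, rose with it. SDBN001P05u.scf gave 21050 and 24980 in drought leaves, against 22.7 and 14.6 in control leaves, at least 1130-fold, and SSBT003F21x.scf gave 19330 and 19440 in drought leaves, against 12.4 and 24.8 in control leaves, where only 1 control array was well above background. All of them were high on both drought arrays and low on both control arrays.

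At the other end, MICRO.5686.C1, which is not in the annotation used here, had 20.17 and 19.2 in drought leaves, against 23490 and 22150 in control leaves, a decrease of at least 1150-fold. MICRO.11045.C2, whose description is GAST1, a tomato protein induced by gibberellin, gave 42.6 and 45.6 in drought leaves, against 22430 and 22940 in control leaves. Its change was -9.01 (SE 0.12, adjusted p = 2e-09). A high signal on both control arrays and a low one on both drought arrays was also seen at MICRO.6475.C2, a GDSL-motif lipase, with 175 and 177 in drought leaves, against 18470 and 19780 in control leaves. A cytochrome P450, MICRO.14609.C1, fell, with a log2 change of -6.34 (SE 0.11), and the UDP-glucosyltransferase MICRO.1822.C3 had 28.8 and 22.6 in drought leaves, against 4044 and 4012 in control leaves, with 1 of the drought arrays well above background.

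**Figure D2:**
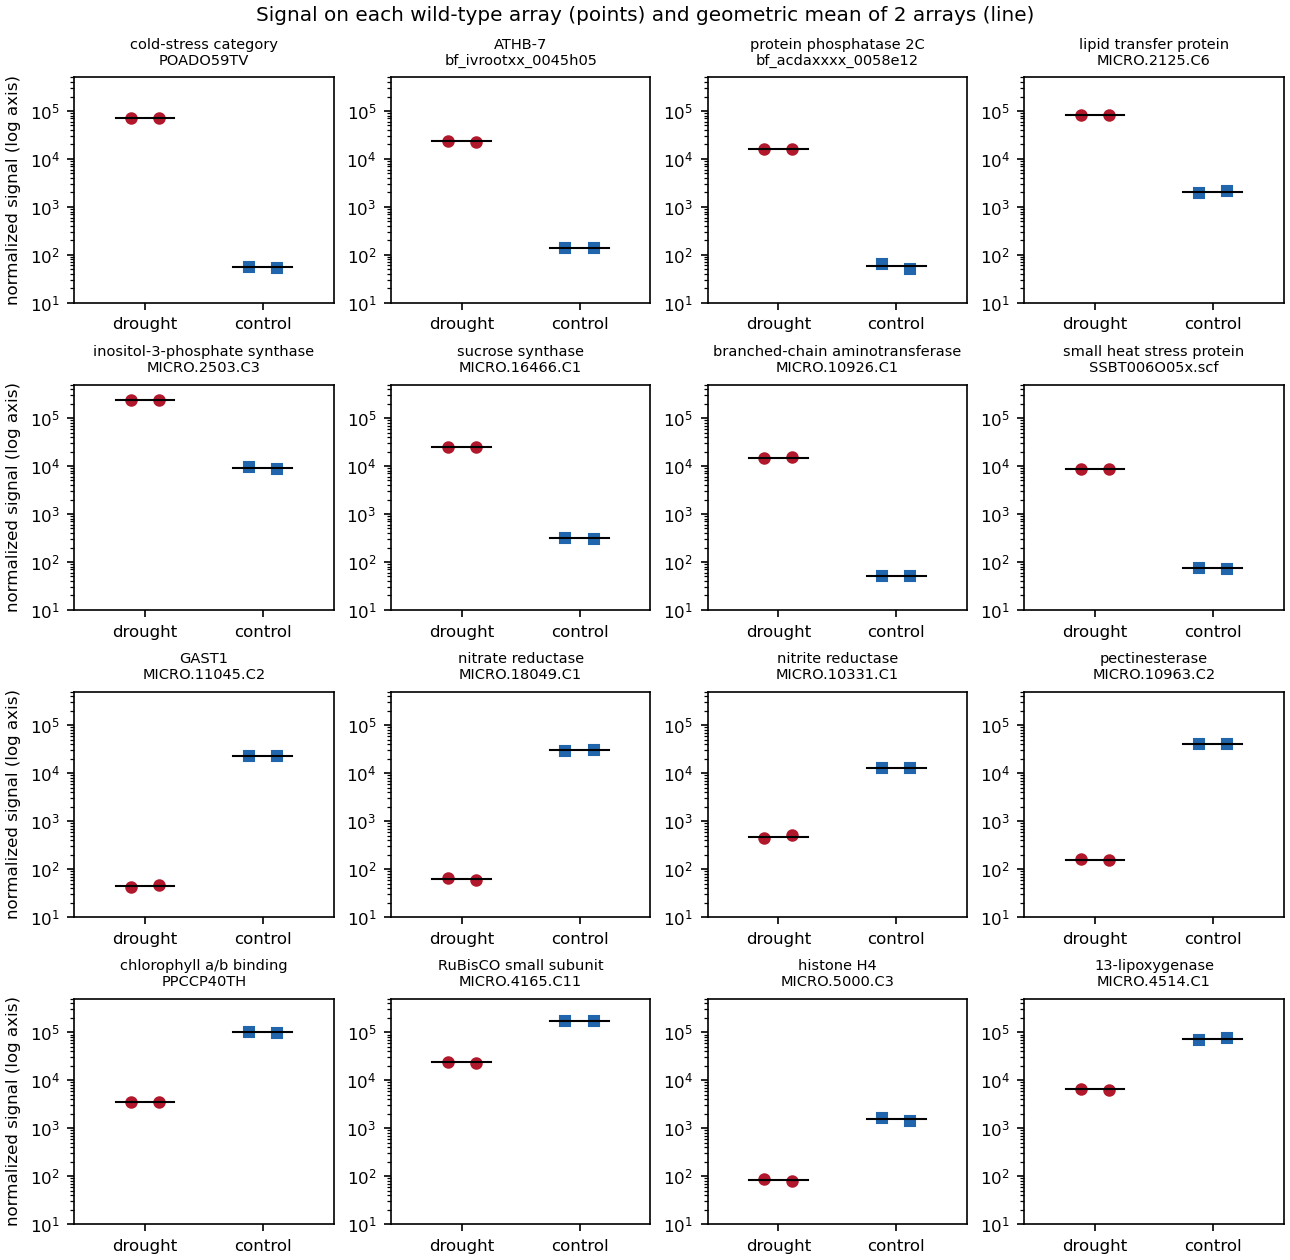
Normalized signal on each WT array (log axis) for 8 probes that were induced and 8 that were repressed, with drought on the left and control on the right of each panel. Points are single arrays and lines their geometric means, and in every panel the pairs of arrays lie far closer to each other than to the other treatment.

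ABA signalling was represented at several levels. Protein phosphatases 2C are a family that includes negative regulators of the ABA pathway. Of 19 tested probes with that description 12 were induced and 4 repressed, with a median change of 1.90. The description does not show which of them act in the ABA pathway. The tobacco-like bf_acdaxxxx_0058e12.t3m.scf gave 16270 and 15910 in drought leaves, against 64.6 and 51.5 in control leaves, a change of 8.12 (SE 0.12, adjusted p = 2.6e-09). MICRO.3489.C1, described as a rice-like phosphatase 2C, changed by 5.84 (SE 0.11). Probes for transcription factors of the bZIP class rose as well. MICRO.3733.C1, similar to an ABA-responsive element binding protein (AREB) of tomato, had 17830 and 17850 in drought leaves, against 1142 and 1133 in control leaves, and MICRO.6937.C1, similar to the G-box-binding protein TAF-3 of tobacco, had 2130 and 2113 in drought leaves, against 36.8 and 37.6 in control leaves. MICRO.14224.C1, a homologue of SNF4, the regulatory subunit of SNF1-related kinases, changed by 7.37 (SE 0.072, adjusted p = 1.5e-09). Neither MICRO.6937.C1 nor MICRO.14224.C1 is in the ABA category of the annotation.

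Over the whole ABA category, 18 of 40 probes rose and 18 fell, and the median was -0.05. With as many probes on either side the median was unsteady, and over 20 alternative settings it lay between -0.81, where the filter on low signals had to be passed on all 8 arrays and 16 rose and 18 fell, and 0.03. The 9-cis-epoxycarotenoid dioxygenases (NCED), which catalyse the committed step of ABA synthesis, did not pass the 2-fold limit on the reported scale. Of the 2 probes, bf_mxflxxxx_0012d12.t3m.scf had 1765 and 1862 in drought leaves, against 3463 and 3370 in control leaves, and MICRO.11321.C1 had 76.6 and 82.1 in drought leaves, against 135 and 123 in control leaves, and neither was higher in drought leaves. With the processed signal of the scanner software MICRO.11321.C1 passed as repressed (-1.06). An aldehyde oxidase homologue that the annotation places at the last step of ABA synthesis, MICRO.3746.C3, fell, with a log2 change of -2.72 (SE 0.082). None of the probes for ABA synthesis named here was higher in drought leaves.

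LEA proteins protect other proteins and membranes during water loss. Their list here also took in the drought and salt category, and 11 of its 47 probes had no description. Of the 47 tested probes 17 were induced and 24 repressed with a median of -1.02, which does not describe LEA proteins alone. Besides LE25, MICRO.17165.C1, a chickpea-like LEA protein, gave 5477 and 5578 in drought leaves, against 32.3 and 26.8 in control leaves, while MICRO.432.C1, a BURP domain protein in the drought and salt category, gave 54.5 and 55.4 in drought leaves, against 1092 and 1115 in control leaves. The shares of the list were close to those of all annotated probes. The cold stress category had 3 tested probes and all of them rose, with a median of 5.66.

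Aquaporins, the channels through which water crosses membranes, went 1 way, with 0 of 16 probes induced and 14 repressed (median -1.55). The tonoplast aquaporin MICRO.6021.C2 had 13.16 and 14.8 in drought leaves, against 215 and 211 in control leaves. Both drought signals were not well above background, and the decrease was at least 10.9-fold. The plasma membrane aquaporin MICRO.1989.C1 fell, with a log2 change of -2.04 (SE 0.097). The opposite direction prevailed among genes of the leaf surface. Of 12 probes for wax synthesis, 10 were induced and 2 repressed (median 1.97), with the wax synthase MICRO.1545.C1 at 4709 and 5153 in drought leaves, against 209.5 and 182 in control leaves, and a homologue of the maize epicuticular wax gene glossy1, MICRO.12312.C1, changing by 3.29 (SE 0.085). Lipid transfer proteins carry lipids to the apoplast, and 15 of 24 tested probes were induced and 6 repressed. Among them MICRO.2125.C6 had 83620 and 80670 in drought leaves, against 1939 and 2125 in control leaves, and MICRO.13027.C1 changed by 5.10 (SE 0.11).

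Genes for compatible solutes responded by pathway. The myo-inositol category had 8 tested probes, of which 6 were induced and 2 repressed (median 1.78). Inositol-3-phosphate synthase makes the inositol backbone from glucose 6-phosphate, and its probe MICRO.2503.C3 gave 238300 on both arrays in drought leaves, against 9567 and 8585 in control leaves. A separate sequence with the same description, bf_arrayxxx_0082g09.t3m.scf, changed by 5.08 (SE 0.091, adjusted p = 6e-09). The next enzyme, inositol monophosphatase, was covered by MICRO.8030.C1, which changed by 1.86 (SE 0.087). A probe of the myo-inositol oxygenase category, bf_mxflxxxx_0051b11.t3m.scf, rose at least 27.7-fold over control arrays without signal well above background. Galactinol synthase, which joins inositol and galactose for the raffinose sugars, had members that differed in direction. MICRO.5668.C1 gave 49610 and 54610 in drought leaves, against 5977 and 6504 in control leaves, while MICRO.7446.C1 gave 323 and 338 in drought leaves, against 832 and 762 in control leaves. Raffinose synthase (STMGZ03TV) changed by 3.06 (SE 0.080), and over the raffinose family 6 of 15 tested probes were induced and 2 repressed.

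Proline is made from glutamate through pyrroline-5-carboxylate, and the reductase of the last step, MICRO.1779.C2, had 2268 and 2199 in drought leaves, against 436 and 446 in control leaves. The dehydrogenase that acts on the same intermediate in proline breakdown, MICRO.3065.C2, rose, with a log2 change of 2.08 (SE 0.080), and proline dehydrogenase, MICRO.5135.C1, stayed just under the limit for a call with 211 and 224 in drought leaves, against 110 and 116 in control leaves, but passed it with the processed signal (1.06). In the trehalose category, 3 of 19 tested probes were induced and 9 repressed. The trehalose-6-phosphate synthase MICRO.14835.C1 gave 9848 and 8346 in drought leaves, against 2806 and 3494 in control leaves, and the trehalose-6-phosphate phosphatase MICRO.3739.C1 gave 1851 and 2148 in drought leaves, against 10180 and 8171 in control leaves. Here the named probe of the enzyme that makes trehalose 6-phosphate was higher in drought leaves and the named probe of the enzyme that removes its phosphate was lower. No direction of the pathway follows from single probes.

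Most lists of photosynthesis probes were lower in drought leaves, which describes transcripts and not photosynthetic activity. Among the light-harvesting proteins, which bind chlorophyll around both photosystems, 40 of 44 probes were repressed and 4 induced (median -1.59). PPCCP40TH, a light-harvesting protein of photosystem II, gave 3502 and 3557 in drought leaves, against 103400 and 96360 in control leaves, a change of -4.82 (SE 0.083, adjusted p = 5e-09). The largest decrease of this list was at bf_mxlfxxxx_0014b07.t3m.scf, with 327 and 428 in drought leaves, against 21050 and 20320 in control leaves. For both, the control signals were more than an order of magnitude above those of drought leaves. Subunits of the photosystems fell as well. Of 14 probes for photosystem I, 13 were repressed (median -1.36), among them psaH (MICRO.9133.C1, -2.37, SE 0.071) and psaK (MICRO.1823.C4). The psaK probe had 27410 and 26230 in drought leaves, against 48330 and 68160 in control leaves, and its change of -1.10 (SE 0.16, adjusted p = 0.00048) was no longer past 2-fold without the second control array (-0.85) or with median scaling (-0.98). Of 16 photosystem II probes, 12 were repressed and 1 induced (median -1.39). The core protein psbY (MICRO.5278.C1) gave 9411 and 9710 in drought leaves, against 27470 and 27410 in control leaves, and a cotton-like subunit, MICRO.2391.C2, changed by -2.15 (SE 0.082). The induced one, bf_stolxxxx_0018c02.t7m.scf, had 3138 and 3260 in drought leaves, against 119 and 126 in control leaves, but has no sequence match in the annotation.

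The Rieske iron-sulfur protein of the cytochrome b6/f complex, PPCBS38TH, changed by -1.46 (SE 0.091). Ferredoxin-NADP+ reductase (MICRO.4050.C1) had 10010 and 10420 in drought leaves, against 28620 and 28360 in control leaves, a change of -1.48 (SE 0.10, adjusted p = 5.8e-06). Ferredoxin, its electron donor and the protein that flavodoxin replaces in microorganisms, was covered by probes of both directions. Ferredoxin I of potato (MICRO.11295.C1) gave 5707 and 5994 in drought leaves, against 13360 and 11730 in control leaves, a change of -1.10 that was under 2-fold with the processed signal of the scanner software (-0.88) or with median scaling (-0.95), while a tomato-like ferredoxin (bf_mxflxxxx_0058h06.t3m.scf) gave 468 and 495 in drought leaves, against 171 and 168 in control leaves. The delta subunit of the plastid ATP synthase, MICRO.4727.C1, changed by -1.12 (SE 0.079), or by -0.82 and no longer past 2-fold with the processed signal. Of the electron carrier list 4 of 17 probes were induced and 8 repressed, with a median of -0.43, close to the -0.40 of all annotated probes.

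In the Calvin cycle, which fixes carbon dioxide, 26 of 32 probes were repressed and 1 induced (median -1.36). RuBisCO is the fixing enzyme, and all 8 probes for its small subunit fell. MICRO.4165.C11 had 23870 and 23450 in drought leaves, against 174100 and 172400 in control leaves, a change of -2.87 (SE 0.070, adjusted p = 2.3e-08), and cSTB34J1TH had 98.1 and 88.2 in drought leaves, against 1094 and 1150 in control leaves. The sole induced probe was a triosephosphate isomerase (MICRO.6900.C1) that is also listed under glycolysis and changed by 1.56 (SE 0.070). Photorespiration, which recycles the product of RuBisCO's oxygenase reaction, had 7 of 10 probes repressed and 0 induced, with glycolate oxidase (MICRO.5499.C1) at 85.5 and 71.0 in drought leaves, against 276 and 277 in control leaves. Probes for chlorophyll synthesis were mostly lower as well. Of the tetrapyrrole category 1 of 23 tested probes were induced and 18 repressed, and protochlorophyllide oxidoreductase (MICRO.49.C5), which catalyses the light-dependent step towards chlorophyll, gave 759 and 676 in drought leaves, against 25310 and 26100 in control leaves. A chlorophyllase (MICRO.14695.C1), an enzyme that cleaves chlorophyll, fell too, with a log2 change of -3.25 (SE 0.082). The early light-inducible protein MICRO.7316.C3, a relative of the light-harvesting proteins made under excess light, went the other way with 58240 and 59470 in drought leaves, against 6970 and 6861 in control leaves.

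These probes also served to check the tissue. The summed signal of the small subunit probes lay between 138828 and 145759 on the drought arrays, against 487443 to 507772 on the control arrays, and that of 35 chlorophyll a/b binding probes between 279790 and 296925, against 969094 to 1010728. On drought arrays 7 of the 8 and 32 of the 35 were well above background on both arrays, and on control arrays all were, so the leaf label holds in both treatments. Patatin, the storage protein of tubers, had 7 probes with summed signals of 158 to 164.4 in drought leaves, against 339.5 to 384.7 in control leaves. Only 1 patatin probe in drought leaves and 6 in control leaves were well above background on both arrays.

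**Figure D3:**
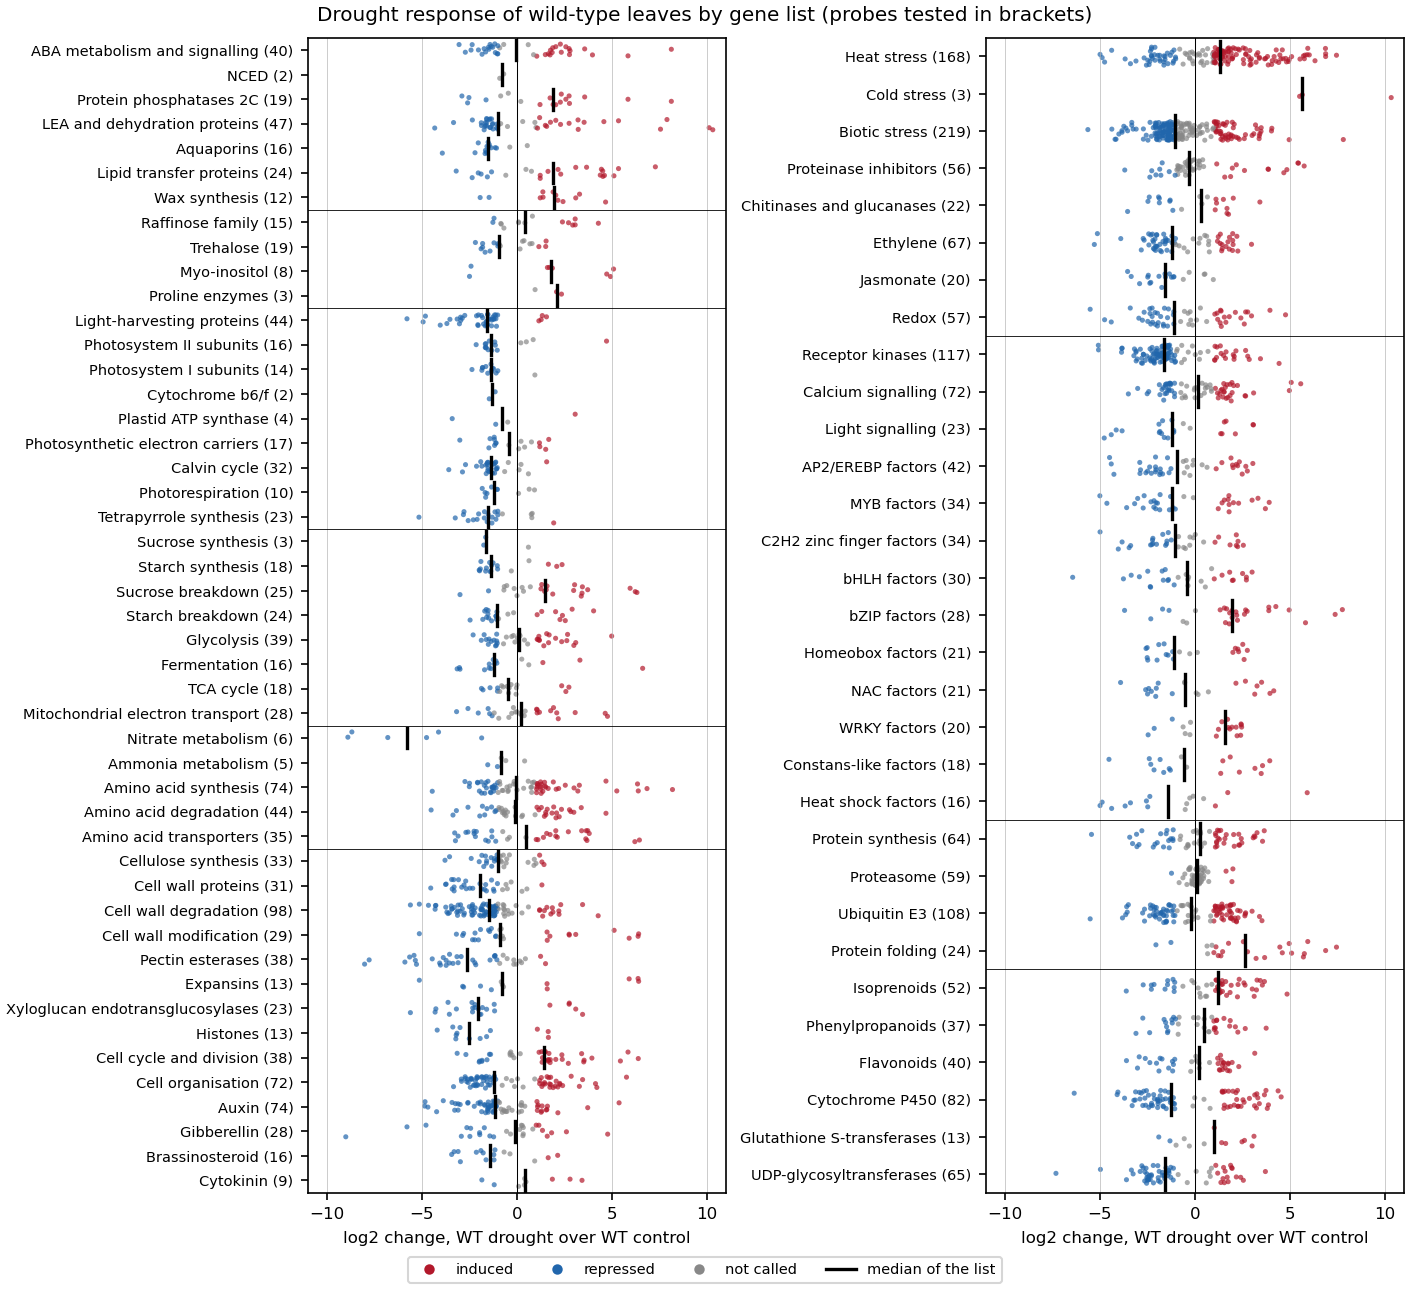
Log2 change of WT drought over WT control for each tested probe of the gene lists, with induced probes in red, repressed ones in blue and uncalled ones in grey, and the median of each list as a black bar. Lists for photosynthesis, nitrate metabolism and the cell wall lie mostly left of 0 (medians of -1.59 for light-harvesting proteins and -5.78 for nitrate metabolism), and those for protein folding (2.67) and bZIP factors (1.96) right of it.

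Among probes for carbon metabolism, the lists for starch synthesis and sucrose breakdown differed in direction. In starch synthesis 13 of 18 probes were repressed and 3 induced (median -1.36). Granule-bound starch synthase (MICRO.920.C2), which makes amylose, had 3332 and 2905 in drought leaves, against 11350 and 13160 in control leaves, while a starch branching enzyme (MICRO.1689.C4) had 1798 and 1632 in drought leaves, against 301 and 368 in control leaves. Fructose-1,6-bisphosphatase (MICRO.5872.C2) in the sucrose synthesis category changed by -1.75 (SE 0.077). In sucrose breakdown, by contrast, 15 of 25 probes were induced and 2 repressed (median 1.45). Sucrose synthase, which splits sucrose with UDP, was behind the largest increases. MICRO.16466.C1 gave 24640 on both arrays in drought leaves, against 319 and 304 in control leaves, a change of 6.31 (SE 0.080, adjusted p = 1.9e-09), and MICRO.1765.C1 gave 5356 and 4755 in drought leaves, against 63.7 and 72.5 in control leaves. An invertase, STMIM75TV, which cleaves sucrose with water, was lower, with 102 and 107 in drought leaves, against 878 and 794 in control leaves. For starch breakdown 8 of 24 tested probes were induced and 13 repressed, and 2 beta-amylases diverged. MICRO.189.C19 had 10410 and 6449 in drought leaves, against 1238 and 1598 in control leaves, with the widest gap between drought arrays of any probe named here, and MICRO.13823.C2 changed by -1.70 (SE 0.084).

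Glycolysis was mixed, with 16 of 39 probes induced, 13 repressed and a median of 0.11, which turned negative in 2 of 20 alternative settings (-0.05 at the lowest). The kinase of phosphoenolpyruvate carboxylase, MICRO.712.C30, had 2521 and 2516 in drought leaves, against 87.1 and 72.9 in control leaves, and its substrate, the carboxylase MICRO.2427.C1, had 1992 and 1849 in drought leaves, against 6338 and 7895 in control leaves. Kinase and substrate moved in opposite directions. In the fermentation list, 11 of 16 probes were repressed and 3 induced. An alcohol dehydrogenase that is also placed among cinnamyl alcohol dehydrogenases, STMEE51TV, gave 3938 and 4269 in drought leaves, against 46.1 and 38.4 in control leaves, whereas pyruvate decarboxylase, MICRO.4875.C1, gave 2085 and 2070 in drought leaves, against 18480 and 18360 in control leaves. Of the citric acid cycle 3 of 18 probes were induced and 5 repressed, and aconitase had a rising probe (bf_mxlfxxxx_0051d10.t3m.scf, 2.73) and a falling one (MICRO.930.C3, -1.87).

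Nitrate assimilation had the lowest median of all lists (-5.78), and all 6 of its probes were repressed. Nitrate reductase, which reduces nitrate to nitrite in the cytosol, was covered by 3 of them. MICRO.18049.C1 gave 65.4 and 59.1 in drought leaves, against 29180 and 30360 in control leaves, a change of -8.90 (SE 0.080, adjusted p = 1.4e-09). MICRO.390.C1 gave 27.8 and 30.7 in drought leaves, against 11040 and 13220 in control leaves, and POCD505TP had 15.1 and 16.0 in drought leaves, against 1626 and 1831 in control leaves, a decrease of at least 88.4-fold, as no drought array was well above background. The control signals were thus high and the drought signals close to background. Nitrite reductase, the next enzyme, located in plastids and fed by ferredoxin, fell at all 3 probes, with 446 and 509 in drought leaves, against 13000 and 12890 in control leaves for MICRO.10331.C1. MICRO.4468.C1 changed by -4.13 (SE 0.13), and MICRO.8565.C1, the one of the NR3 primer pair, had 583 and 575 in drought leaves, against 2221 and 1996 in control leaves. In ammonia assimilation 2 of 5 probes were repressed and 0 induced. Glutamate synthase (MICRO.8806.C1) changed by -1.03 (SE 0.073), or by -0.98 and no longer past 2-fold with the processed signal, and glutamine synthetase (MICRO.1095.C2) had 7496 and 8001 in drought leaves, against 12580 and 14990 in control leaves, a change of -0.83 that did not reach 2-fold.

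Amino acid genes moved both ways. Of 74 probes for synthesis 29 were induced and 25 repressed, and of 44 for degradation 18 and 11. Branched-chain aminotransferase, which acts at the first step of breakdown and the last step of synthesis of leucine, isoleucine and valine, rose at 2 probes. MICRO.10926.C1 gave 14470 and 15120 in drought leaves, against 50.3 and 51.5 in control leaves, a change of 8.18 (SE 0.11, adjusted p = 2.5e-09), and MICRO.10925.C1 changed by 6.38 (SE 0.15). Glutamate decarboxylase, which forms GABA, had members that moved in both directions. MICRO.6945.C1, described by its tomato homologue, gave 9146 and 8961 in drought leaves, against 77.3 and 80.6 in control leaves, and isozyme 3 (MICRO.3974.C4) gave 58.8 and 63.7 in drought leaves, against 1459 and 1242 in control leaves. The probes of these isozymes were high under opposite conditions. The methionine gamma-lyase category (MICRO.2739.C1, 4.68, SE 0.085) and lysine-ketoglutarate reductase (MICRO.7729.C1, 2.99, SE 0.077), the first enzyme of lysine breakdown, rose. Arginase 2 (bf_mxlfxxxx_0068d04.t3m.scf), which releases urea from arginine, had 1268 and 1146 in drought leaves, against 26560 and 28900 in control leaves, and asparaginase (MICRO.5707.C1) changed by -3.37 (SE 0.086). Among amino acid transporters 17 of 35 were induced and 14 repressed, and the largest rise, at MICRO.14769.C1, was 12040 and 12800 in drought leaves, against 141 and 146 in control leaves.

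Lists of wall genes held more repressed than induced probes, except for expansins. Pectin esterases, which modify pectin in the wall, had the second lowest median after nitrate metabolism (-2.63), with 27 of 38 probes repressed and 2 induced. MICRO.10963.C2 had 159 and 152 in drought leaves, against 39630 and 40930 in control leaves, a change of -8.02 (SE 0.092, adjusted p = 1.6e-09), and MICRO.4403.C1 had 77.9 and 71.4 in drought leaves, against 16240 and 16490 in control leaves. MICRO.106.C2 changed by -5.90 (SE 0.089). Xyloglucan endotransglucosylases, which cut and rejoin wall polymers, had 18 of 23 probes repressed and 5 induced. MICRO.14995.C1 gave 124 and 121 in drought leaves, against 6654 and 5378 in control leaves, and XTH6 (MICRO.3403.C4) gave 644 and 608 in drought leaves, against 81.3 and 66.7 in control leaves. Expansins, which loosen walls, were divided, with 5 of 13 in each direction. Expansin 2 (MICRO.16156.C1) had 677 and 719 in drought leaves, against 25030 and 24090 in control leaves, and the expansin-related bf_mxflxxxx_0026g01.t3m.scf rose at least 81.9-fold over control signals that were not well above background. Wall proteins were repressed at 24 of 31 probes and induced at 1. In cellulose synthesis 16 of 33 probes were repressed, 3 induced and 14 not called. Of all annotated probes 43.5% were repressed and 35.3% induced. A cellulose synthase homologue (STMGM17TV, -3.79, SE 0.14) was among those that fell. A mannan hydrolase (MICRO.4546.C1) rose, with 54190 and 55930 in drought leaves, against 2561 and 3199 in control leaves.

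Of 13 histone probes 10 fell and 3 rose (median -2.51). Histone H4 (MICRO.5000.C3), a core histone made in dividing cells, had 86.4 and 81.2 in drought leaves, against 1672 and 1420 in control leaves. The linker histone H1 that is described as stress-inducible in tomato (MICRO.6640.C1) had 103900 and 105600 in drought leaves, against 33200 and 34170 in control leaves. These 2 probes moved in opposite directions. The category of cell cycle and division was mainly induced, at 23 of 38 probes with 9 repressed, but its members are varied. Cyclin D2 (MICRO.9251.C1), which promotes entry into the cycle, fell, with a log2 change of -2.69 (SE 0.14), and the largest rise was at a FtsH-like protease (STDB001B16u.scf), which is a plastid protease in Arabidopsis, at least 83.3-fold.

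Auxin and brassinosteroid genes fell more often than they rose. Of 74 auxin probes 45 were repressed and 13 induced, with a SAUR-like protein (MICRO.16631.C1) at 34 and 32.9 in drought leaves, against 949.7 and 791 in control leaves, and an auxin-repressed protein (MICRO.13674.C1) at 53720 and 54020 in drought leaves, against 1325 and 1276 in control leaves. An auxin transporter (MICRO.8985.C1) changed by -3.10 (SE 0.095). For gibberellin 7 of 28 tested probes were induced and 12 repressed, with a median of -0.10 that turned positive with median scaling (0.02) or the filter on all 8 arrays (0.23). Gibberellin 2-oxidase, which inactivates the hormone, rose at MICRO.7232.C1, with 769.9 and 815 in drought leaves, against 27.6 and 30.5 in control leaves and 1 of the control arrays well above background. Gip1-like protein (MICRO.63.C4), related to a gibberellin-induced petunia gene, fell with GAST1, having 43.8 and 39.9 in drought leaves, against 2312 and 2317 in control leaves. In brassinosteroid metabolism 11 of 16 probes were repressed, among them the C-6 oxidase known as Dwarf in tomato (MICRO.4295.C1, -3.44, SE 0.12).

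The heat stress list had more induced probes than any other, with 105 of 168 probes induced and 39 repressed (median 1.31), in plants that all grew at 25 °C by day. Chaperones of several classes were among them. The HSP70 probe MICRO.6997.C1 gave 4567 and 4655 in drought leaves, against 24.8 and 27.8 in control leaves, a rise of at least 176-fold, and a small heat stress protein of class CIII, SSBT006O05x.scf, gave 8605 and 8834 in drought leaves, against 74.9 and 71.9 in control leaves. In the protein folding category 19 of 24 probes were induced and 2 repressed (median 2.67). The heat shock factors that control such genes were not uniformly higher, with 3 of 16 induced and 8 repressed. HSFA9 (MICRO.7407.C1), known from sunflower seeds, had 1566 and 1584 in drought leaves, against 23.8 and 28.4 in control leaves, with 1 of the control arrays well above background. Another factor, MICRO.4263.C4, fell at least 29-fold.

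Of 57 redox probes 18 were induced and 29 repressed, near the 35.3% and 43.5% of all annotated probes. A cytosolic ascorbate peroxidase (MICRO.7305.C1), which removes hydrogen peroxide, had 2714 and 2605 in drought leaves, against 103 and 91.4 in control leaves, and glutaredoxin 1 (MICRO.13440.C1) had 211 and 204 in drought leaves, against 8371 and 10450 in control leaves. Jasmonate synthesis, which serves wound and pathogen responses, had 15 of 20 probes repressed and 0 induced (median -1.55). A 13-lipoxygenase (MICRO.4514.C1) at the entry to the pathway gave 6613 and 6267 in drought leaves, against 70490 and 78060 in control leaves, and allene oxide cyclase (MICRO.2858.C2), 2 enzymes further on, changed by -2.90 (SE 0.091). In the ethylene category 37 of 67 were repressed and 18 induced. ACC oxidase, which releases ethylene, fell at MICRO.2939.C2 with 28670 and 28500 in drought leaves, against 133100 on both arrays in control leaves, while E8 (MICRO.13070.C1), a related ripening protein of tomato, changed by 2.22 (SE 0.10).

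Of the 219 biotic stress probes, 53 were induced and 111 repressed (median -1.03). The largest rise was at a major latex-like protein (MICRO.15700.C1), with 11350 and 10720 in drought leaves, against 52.9 and 44.9 in control leaves. Proteinase inhibitors, which act against insects, showed 13 of 56 probes induced and 9 repressed, with a Kunitz-type inhibitor (TBSK00926FF02t3m.scf, 5.46, SE 0.085) rising and an inhibitor II (MICRO.6809.C3, -3.68, SE 0.15) falling. Probes of 1 contig number for chitinases went opposite ways, as MICRO.556.C3 had 367 and 384 in drought leaves, against 34.6 and 35.2 in control leaves, and MICRO.556.C1 had 326 and 343 in drought leaves, against 4044 and 3677 in control leaves. Receptor kinases fell at 87 of 117 probes and rose at 19 (median -1.59), among them STMCS57TV with 26.96 and 29.64 in drought leaves, against 962 and 918 in control leaves. In calcium signalling 27 of 72 rose and 26 fell.

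Transcription factor families differed in direction. The bZIP category, to which the annotation also assigns homeodomain-leucine zipper proteins, had 21 of 28 probes induced and 4 repressed (median 1.96). ATHB-7 and ATHB-12 are such proteins, induced by water deficit in Arabidopsis. ATHB-7 (bf_ivrootxx_0045h05.t3m.scf) gave 23920 and 22580 in drought leaves, against 142 and 136 in control leaves, a change of 7.39 (SE 0.082, adjusted p = 1.6e-09), and ATHB-12 (MICRO.6964.C1) gave 11770 and 13210 in drought leaves, against 59.8 and 54.4 in control leaves. Another member, MICRO.11291.C1, fell, with 466 and 491 in drought leaves, against 6136 and 6202 in control leaves. WRKY factors rose at 13 of 20 probes and fell at 3, with a tobacco-like DNA-binding protein (STMHR69TV) changing by 2.47 (SE 0.13). Of the NAC family 7 of 21 rose and 9 fell. The NAC factor named jasmonic acid 2 (MICRO.10179.C3) had 9219 and 8735 in drought leaves, against 560.1 and 452 in control leaves, and NAC2 (bf_mxlfxxxx_0059g04.t3m.scf) had 18140 and 18440 in drought leaves, against 1149 and 1211 in control leaves. MYB factors had 13 of 34 induced and 19 repressed, with a homologue of the snapdragon factor 306 (MICRO.15531.C1, 3.33, SE 0.083) and MICRO.12164.C1 (-4.62, SE 0.10) moving in opposite directions. In the AP2 family, which holds the dehydration-responsive DREB factors, 12 of 42 rose and 21 fell, and the DREB-like probe named here, MICRO.8757.C1, was among those that fell, with 30.6 and 35.6 in drought leaves, against 744 and 644 in control leaves. Of 18 Constans-like probes 8 rose and 8 fell, and a poplar-like CO1 (STMHT65TV, 3.95, SE 0.11) and Constans-like 16 (MICRO.17979.C1, -4.51, SE 0.076) stood at the ends of the list.

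Secondary metabolism was mixed by branch. Isoprenoid genes rose at 30 of 52 probes and fell at 12 (median 1.22). Beta-amyrin synthase (STMGM67TV), which forms the triterpene skeleton, had 5238 and 5342 in drought leaves, against 182 on both arrays in control leaves, and HMG-CoA reductase (MICRO.2814.C1), the regulated enzyme of the mevalonate route to sterols and triterpenes, had 91.9 and 103 in drought leaves, against 664 and 613 in control leaves. Phenylpropanoid genes were induced at 14 of 37 and repressed at 12 probes, with a cinnamoyl-CoA reductase of lignin synthesis (POCB711TP) changing by 3.76 (SE 0.076). Flavonol synthase (bf_mxlfxxxx_0036d08.t3m.scf) had 6694 and 6183 in drought leaves, against 1720 and 1558 in control leaves, in a flavonoid category of 18 induced and 14 repressed among 40. UDP-glycosyltransferases were repressed at 42 of 65 probes and induced at 16. Cytochrome P450 enzymes moved both ways, with 46 of 82 repressed and 32 induced, against 43.5% and 35.3% of all annotated probes. Glutathione S-transferases, which conjugate toxic compounds, were induced at 7 of 13 and repressed at 2, with MICRO.6253.C1 (3.12, SE 0.088) among the induced ones.

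Among lists of over 5 probes the proteasome, which degrades ubiquitin-tagged proteins, had the smallest share of called probes. Of its 59 probes 3 were induced and 1 repressed, with a median of 0.10, against 35.3% and 43.5% over all annotated probes. Over all tested probes the shares were 8.20% and 10.0%. The annotation also holds probes called in other comparisons, and the paper reports an excess of proteasome genes among those induced by Fld without drought. The low share in this list is therefore no result about the drought response. The subunit RPN9b (MICRO.767.C1) had 2937 and 3077 in drought leaves, against 3472 and 3211 in control leaves, and the probe of the PSA2B primers (MICRO.1887.C4) had 11560 and 11900 in drought leaves, against 11210 and 10910 in control leaves. Their changes of -0.15 (adjusted p = 0.12) and 0.08 (adjusted p = 0.35) missed the threshold. A pair of the induced ones, MICRO.7259.C1 (1.96, SE 0.095) and MICRO.13293.C2 (1.65, SE 0.073), share a description as proteasome-related, and the repressed one, MICRO.2258.C3 (-1.22, SE 0.100, or -0.99 with a normexp offset of 50), has no sequence match. Ubiquitin ligases of the E3 class, which select proteins for degradation, rose at 45 of 108 probes and fell at 45.

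The WT response was set against that of *Stpfld252*, in which a slide effect common to both lines cancels. By limma's test of the difference, the change was higher in the WT at 2165 probes (5.97%) and lower at 2109 (5.82%). Among the annotated probes 46.8% differed. In nitrate metabolism all 6 probes differed, and the median was -5.78 in the WT and -0.52 in *Stpfld252*. At the nitrate reductase probe MICRO.18049.C1 the change was -8.90 in the WT and -0.57 in *Stpfld252*. Changes within a line do not show the level from which that line started. The paper lists nitrate metabolism among the categories that Fld repressed without drought. For RuBisCO's small subunit the medians were -1.89 and -0.22, and 6 of 8 probes were lower in the WT. GAST1 changed by -9.01 in the WT and -8.16 in *Stpfld252*, a difference of -0.85 that stayed under 2-fold. The lipase MICRO.6475.C2, the xyloglucan endotransglucosylase MICRO.14995.C1 and the brassinosteroid oxidase MICRO.4295.C1 changed by -6.76, -5.61 and -3.44 in the WT and by -7.05, -5.84 and -3.41 in *Stpfld252*. Of NCED, the change was less negative in the WT, with -0.91 in the WT and -1.95 in *Stpfld252* at bf_mxflxxxx_0012d12.t3m.scf.

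**Figure D4:**
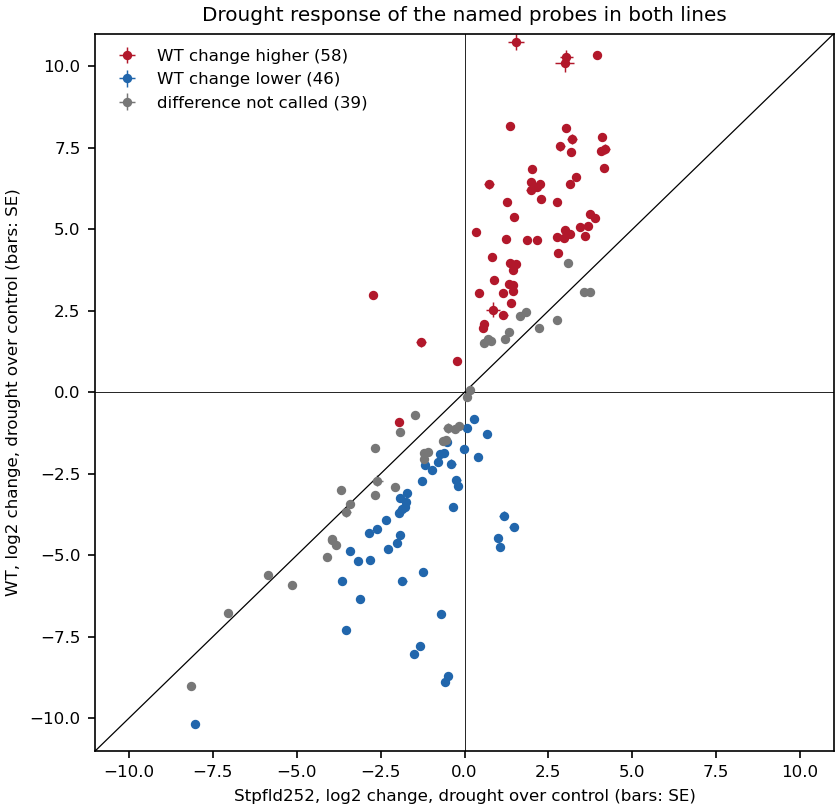
Log2 change of drought over control at each probe named in the text, for the WT (vertical axis) and *Stpfld252* (horizontal axis), with SE bars and the line of equal change. Colours show where the difference of the changes was called at a probe, as for ATHB-7 (7.39 in the WT and 4.08 in *Stpfld252*). Most plotted probes were named for the size of their change in the WT, so their position relative to the line is no result.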

How the data were processed

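The authors deposited scanner files written by Feature Extraction (version 11.5.1.1 per the file headers), with the median intensity of each spot and its local background, not normalized between arrays, and a table of log2 values made by the authors with limma, used here as an alternative. Normexp correction (offset 0) of the median intensities, limma's between-array quantile normalization, which averages intensities before log2 is taken, removal of control spots and a filter at 1.1 times the 95th percentile of 153 negative control spots on both arrays of a group left 36250 of 42034 probes. The plan had named quantile normalization on the log2 scale, which was run as an alternative. One limma model (R 4.3.3, limma 3.58.1) of the 4 groups was fitted to 8 arrays, and the comparisons were drought against control in the WT and the difference of that change from *Stpfld252*. The model fit and the limits for a call were tested on simulated data of this comparison with 36250 probes. They called 44 of 50 probes changed 2.5-fold, 50 of 50 changed 4-fold and 49 of 50 changed 8-fold. Of 50 probes changed 1.5-fold, which is under the 2-fold limit, 0 were called. The normexp correction, the normalization, the filter and an effect of the slide were not tested.

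Probes named are the 10 largest described changes in each direction, the 3 largest of each list in each direction, members of lists of up to 8 probes, probes with primers and the 3 largest changes whatever the annotation, from which the text gives a selection of 143 of 424. Members, lists and this selection were chosen with earlier results of these data known. Bounds use the highest, per array, of the lowest signal well above background, the 95th percentile of the negative controls and the probe's own signal. Annotations came from the study's tables, some of which were used in part. Columns of fold changes and p-values in those tables were not used. Alternatives varied the normexp offset, signal, scaling, filter, outlier spots, prior, arrays fitted, fold threshold, replicate block and each WT array.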

Additional observations from a re-analysis of the deposited data

Results flagged for a closer look

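The WT response was compared with that of *Stpfld252* by limma's test of the difference, and each value in brackets here is the WT log2 change minus the *Stpfld252* log2 change at a probe where that difference was called (adjusted p under 0.05 and over 2-fold). Over all tested probes the WT change was higher at 2165 and lower at 2109. The probes given here are those the report names, mostly chosen for the size of their WT change, so that 104 of 143 differed, against 11.8% of all tested and 46.8% of annotated probes, is no result. In 10 of the 104 no array of 1 WT treatment was well above background, so that their WT change is known only as a bound and the value in brackets, printed with the word fitted, is a model estimate and not a measured size. Groups of 2 arrays are too small for a test of outlying arrays.

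Among probes for water relations, the WT change was higher at the unmatched sequence MICRO.14712.C2 (fitted 9.20), the cold stress probe POADO59TV (6.38) and the LEA probes SDBN001P05u.scf (fitted 7.27), SSBT003F21x.scf (7.13) and MICRO.17165.C1 (4.70). In ABA signalling the same held for the phosphatases bf_acdaxxxx_0058e12.t3m.scf (5.11) and MICRO.3489.C1 (3.09) and the AREB-like MICRO.3733.C1 (2.61), and outside the ABA category for TAF-3 at MICRO.6937.C1 (4.55), a bZIP factor, and the SNF1 kinase subunit SNF4 at MICRO.14224.C1 (4.18). It also held for the NCED probe bf_mxflxxxx_0012d12.t3m.scf (1.04), and the reverse for the aldehyde oxidase MICRO.3746.C3 (-1.46). The wax and lipid transfer probes that rose more in the WT were MICRO.1545.C1 (2.79), MICRO.12312.C1 (1.84), MICRO.2125.C6 (1.43) and MICRO.13027.C1 (1.41), while the BURP protein MICRO.432.C1 (-1.48) and the aquaporin MICRO.6021.C2 (fitted -1.58) fell more. For osmolytes the WT change was higher at the inositol-3-phosphate synthases MICRO.2503.C3 (1.75) and bf_arrayxxx_0082g09.t3m.scf (1.64), the inositol oxygenase category at bf_mxflxxxx_0051b11.t3m.scf (fitted 4.59), galactinol synthase MICRO.5668.C1 (1.90) and raffinose synthase STMGZ03TV (2.62). Galactinol synthase MICRO.7446.C1 (-1.95) went the other way. The WT change was also higher at the probes for proline breakdown MICRO.3065.C2 (1.49) and MICRO.5135.C1 (1.18), of which the latter was not called in the WT itself. It was higher at trehalose-6-phosphate synthase MICRO.14835.C1 (2.82) and lower at the phosphatase MICRO.3739.C1 (-1.79).

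Among photosynthesis probes the change was lower in the WT at 20 of 44 light-harvesting, 6 of 14 photosystem I, 5 of 16 photosystem II and 18 of 32 Calvin cycle probes. It was higher at 0, 0, 1 and 0 probes of these lists. Of all annotated probes 46.8% differed, but that share counts both directions and is no measure for a single one. Whether the direction differed from that of other probes was not tested. Of the probes named, those with a lower change in the WT were the light-harvesting proteins PPCCP40TH (-2.55) and bf_mxlfxxxx_0014b07.t3m.scf (-3.94), psaH at MICRO.9133.C1 (-1.41), psbY at MICRO.5278.C1 (-1.01), the photosystem II subunit MICRO.2391.C2 (-1.37) and ferredoxin I at MICRO.11295.C1 (-1.17). They also included RuBisCO's small subunit at MICRO.4165.C11 (-2.67) and cSTB34J1TH (-1.73), protochlorophyllide oxidoreductase at MICRO.49.C5 (-2.00) and chlorophyllase at MICRO.14695.C1 (-1.34), whereas the difference was not called at psaK, the Rieske protein, ferredoxin-NADP+ reductase, the ATP synthase delta subunit and glycolate oxidase. The unmatched photosystem II probe bf_stolxxxx_0018c02.t7m.scf (3.46) rose more in the WT. In carbon metabolism, starch synthase MICRO.920.C2 (-2.39), fructose-1,6-bisphosphatase MICRO.5872.C2 (-1.72) and phosphoenolpyruvate carboxylase MICRO.2427.C1 (-1.16) were lower. Sucrose synthase at MICRO.16466.C1 (4.15) and MICRO.1765.C1 (4.25), branching enzyme MICRO.1689.C4 (1.21), beta-amylase MICRO.189.C19 (1.69), the carboxylase kinase MICRO.712.C30 (1.98), alcohol dehydrogenase STMEE51TV (3.30) and aconitase bf_mxlfxxxx_0051d10.t3m.scf (1.34) were higher.

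The WT change was lower at the nitrate reductase probes MICRO.18049.C1 (-8.33), MICRO.390.C1 (-8.21) and POCD505TP (fitted -6.10). It was also lower at the nitrite reductase probes MICRO.10331.C1 (-5.83), MICRO.4468.C1 (-5.59) and MICRO.8565.C1 (-1.24) and at glutamine synthetase MICRO.1095.C2 (-1.12). The nitrite reductase changes in *Stpfld252* were 1.07 at MICRO.10331.C1 and 1.46 at MICRO.4468.C1, so that the lines moved in opposite directions there. Such differences of changes give no signal level in either line, and the paper reports nitrate metabolism as repressed by Fld without drought. A higher WT change was seen at branched-chain aminotransferase MICRO.10926.C1 (6.84) and MICRO.10925.C1 (5.64), glutamate decarboxylase MICRO.6945.C1 (4.84) and the methionine gamma-lyase category at MICRO.2739.C1 (2.52). The same held for lysine-ketoglutarate reductase MICRO.7729.C1 (5.71) and the amino acid transporter MICRO.14769.C1 (4.47). At glutamate decarboxylase 3, MICRO.3974.C4 (-5.45), and asparaginase MICRO.5707.C1 (-1.63) the WT change was lower.

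Among growth genes the WT change was lower at the pectin esterases MICRO.10963.C2 (-6.52) and MICRO.4403.C1 (-6.45), expansin 2 at MICRO.16156.C1 (-2.33), cellulose synthase STMGM17TV (-4.97), histone H4 at MICRO.5000.C3 (-1.60), cyclin D2 at MICRO.9251.C1 (-2.45), the auxin transporter MICRO.8985.C1 (-1.38), Gip1 at MICRO.63.C4 (-2.13) and the unannotated MICRO.5686.C1 (fitted -2.15). It was higher at the expansin-related bf_mxflxxxx_0026g01.t3m.scf (fitted 4.16), the mannan hydrolase MICRO.4546.C1 (1.47), FtsH at STDB001B16u.scf (fitted 3.25), the auxin-repressed MICRO.13674.C1 (3.90) and gibberellin 2-oxidase MICRO.7232.C1 (2.00).

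Of the stress genes, HSP70 at MICRO.6997.C1 (fitted 3.25), the small heat stress protein SSBT006O05x.scf (2.72), HSFA9 at MICRO.7407.C1 (3.64), ascorbate peroxidase MICRO.7305.C1 (1.18), the latex-like MICRO.15700.C1 (3.72), the Kunitz inhibitor TBSK00926FF02t3m.scf (1.73) and the chitinase MICRO.556.C3 (2.56) rose more in the WT. The heat shock factor MICRO.4263.C4 (fitted -1.44), glutaredoxin MICRO.13440.C1 (-4.27), lipoxygenase MICRO.4514.C1 (-1.76), ACC oxidase MICRO.2939.C2 (-1.04) and chitinase MICRO.556.C1 (-3.18) were lower. Among regulators, ATHB-7 at bf_ivrootxx_0045h05.t3m.scf (3.31), ATHB-12 at MICRO.6964.C1 (4.57), the NAC factor MICRO.10179.C3 (3.33), the MYB factor MICRO.15531.C1 (2.00) and CO1 at STMHT65TV (2.43) were higher, and MICRO.11291.C1 (-1.73), the MYB factor MICRO.12164.C1 (-2.61) and the DREB-like MICRO.8757.C1 (-2.47) lower. In secondary metabolism and protein turnover, beta-amyrin synthase STMGM67TV (1.73), cinnamoyl-CoA reductase POCB711TP (2.31), glutathione S-transferase MICRO.6253.C1 (1.67) and the proteasome-related MICRO.7259.C1 (1.42) were higher, and the P450 MICRO.14609.C1 (-3.24) and the glucosyltransferase MICRO.1822.C3 (-3.77) lower.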

How the results depend on the processing

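Over 20 alternatives the number of induced probes kept within 1.5 times the 2972 reported, and that of repressed probes within 1.5 times 3628, except with a test against a 1.2-fold change in place of the 2-fold limit, which gave 7396 and 7029 by its own construction. That test called 3907 probes higher and 4225 lower in the WT than in *Stpfld252*, and median scaling called 1334 higher in place of 2165, a drop whose cause was not tested. With 1 WT array left out, in which case the spread of the remaining one is taken from the other groups, the ranges were 2998 to 3052 induced, 3608 to 3746 repressed, 2208 to 2255 higher and 2123 to 2234 lower. The deviations of same-numbered WT drought and control pools correlated at -0.15, so the numbers were not taken as pairs. The fit with a replicate block gave 2973 induced and 3632 repressed probes, and a crossed pairing, added after seeing the data, 2972 and 3629. Quantile means taken on the log2 scale, also added after seeing the data, gave 3086 and 3764. The authors' table of log2 values, which a normexp offset of 16 reproduced, gave fewer calls than reported here, 2529 induced and 3172 repressed. An offset of 50 gave 2089 and 2671, the processed signal 3693 and 4881, and the WT arrays alone 3213 and 3883.

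Of the 143 probes named, none changed direction. Calls were lost at psaK, ferredoxin I, the ATP synthase delta subunit, glutamate synthase and MICRO.2258.C3, each close to 2-fold, in 1 or 2 alternatives each. Calls were gained with the processed signal at NCED MICRO.11321.C1 (-1.06) and proline dehydrogenase (1.06), and with the test against a 1.2-fold change at these, the other NCED probe and glutamine synthetase MICRO.1095.C2. The medians of 4 lists, namely ABA, glycolysis, gibberellin and amino acid synthesis, all between -0.10 and 0.11, changed sign in 2 to 4 alternatives. Signals near background limit what can be said of probes detected in 1 treatment.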
